A study of Mus musculus with 9 samples.

Results

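The peroxiredoxins, sulfiredoxin and the cytosolic thioredoxin system were followed through erythroblasts of 3 genotypes in a mouse model of beta-thalassemia. The set comprised 10 listed genes: Prdx1 to Prdx6, Srxn1, Txn1, Txnrd1 and Txnip. Members were the probe sets whose only gene symbol in the platform annotation was one of these names. This gave 10 probe sets for 8 genes, of 19938 genes named by a probe set of their own. Prdx1 and Prdx2 had 2 probe sets each, and the other measured genes had 1. Prdx5 and Prdx6 had none and have no values here. All 10 probe sets passed the filter on dim signals on all 9 arrays, and ranked between 79.0% and 99.9% of the probe sets of their arrays.

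The cells were erythroblasts from E14.5 fetal livers, a mid-gestation stage at which the liver is the main site of red cell production, sorted for CD71 (the transferrin receptor), Ter119 (a red cell surface marker) and high forward scatter, a measure of cell size. The groups were Th3/Th3 homozygotes, Th3/+ heterozygotes and wild type embryos, with 3 biological replicates and 1 array each. Th3 is an allele without functional adult beta-globin genes, so Th3/+ cells lack 1 copy of this gene pair and Th3/Th3 cells have no intact copy. Per the labels, all groups came from matings of Th3/+ animals, on a 129SV background crossed back to C57BL/6 for 9 generations. Whether single embryos or pooled litters gave each sample is not in the labels. The p-values therefore measure the spread between these samples only.

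Whole-transcript arrays were used, and each value below is the deposited log2 signal of a probe set (how probes were summarised is not settled), so a difference of 1 stands for a doubling. Adult beta-globin signal, from a probe set shared by the adult genes, lay between 8.49 and 10.09 on Th3/Th3 arrays, 13.76 and 13.81 on Th3/+ arrays, and 13.81 and 13.86 on wild type arrays. The last of these ranges sat near the top of the scale, where the highest value of any array was 14.03 to 14.20. The 9 erythroid markers measured had array means from 10.44 to 10.67 in Th3/Th3 cells, 11.16 to 11.24 in Th3/+ cells and 11.21 to 11.34 in wild type cells. Rank correlations between arrays of 1 genotype were 0.968 to 0.987. Replicate 1 of Th3/Th3 and replicate 1 of Th3/+ stood apart on the second principal component, so results were also computed without these arrays.

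Peroxiredoxins are abundant peroxidases that destroy hydrogen peroxide with a reactive cysteine. Thioredoxin restores the oxidized enzyme, and thioredoxin reductase, a selenoprotein, recharges thioredoxin with electrons from NADPH. When peroxide is high the cysteine of typical peroxiredoxins is oxidized further and the enzyme stalls, and sulfiredoxin repairs it in a reaction that uses ATP. Txnip binds reduced thioredoxin and holds it back, and also limits glucose uptake. Peroxiredoxin 2 is among the most abundant proteins of the red cell, where hemoglobin oxidation is a steady source of peroxide, and mice without Prdx1 or Prdx2 develop hemolytic anemia.

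In Th3/Th3 erythroblasts 3 members rose strongly, sulfiredoxin (Srxn1) 5.92-fold, peroxiredoxin 1 (Prdx1) 4.39-fold and thioredoxin reductase 1 (Txnrd1) 2.62-fold over wild type. Prdx2, the red cell's main peroxiredoxin, fell 1.21-fold. Thioredoxin itself (Txn1) was 1.15-fold higher and its inhibitor Txnip 1.89-fold lower, both close to the threshold of the test. The mitochondrial Prdx3 and the endoplasmic reticulum Prdx4 did not pass. In all, 6 of 8 measured members changed by limma's moderated test with a Benjamini-Hochberg adjusted p under 0.05, 4 upwards and 2 downwards. Over all 17742 probe sets tested, 12.3% were called, 7.31% higher and 4.98% lower. The members are brighter than most of these. With the filter on dim signals raised to the 60th percentile of each array, 20.6% of 11963 probe sets and the same 6 members were called. The median difference was 0.26 over the 8 members and 0.00 over all probe sets. With cells measured in bulk, fewer cells of a type and less RNA per cell cannot be told apart.

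**Figure D1:**
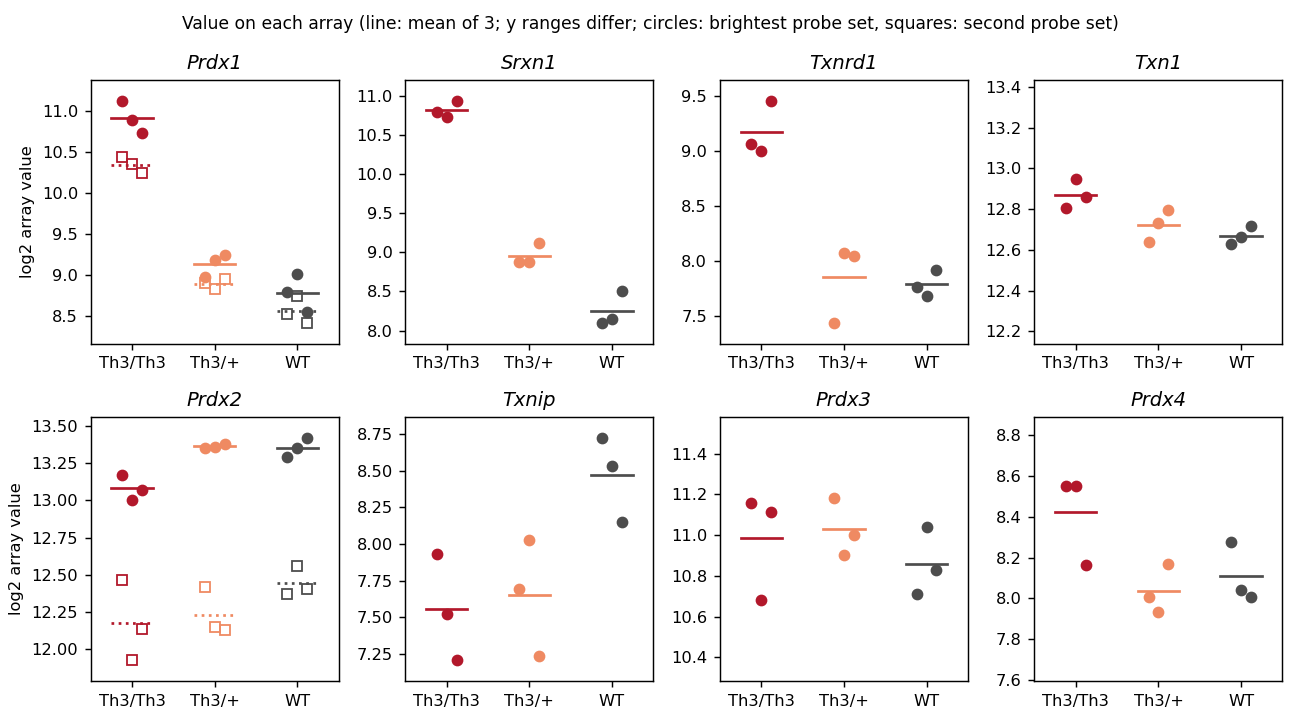
Log2 array value of each member (y axis, ranges differ between panels) in Th3/Th3, Th3/+ and wild type (WT) erythroblasts, with 1 point per array and a line at the mean of 3. Squares are the second probe sets of Prdx1 and Prdx2. In the panels of Prdx1, Srxn1 and Txnrd1 all Th3/Th3 points lie above the points of the other genotypes for the same probe set, and in that of Txnip the wild type points, 8.15 to 8.72, lie above the rest.

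Srxn1 encodes sulfiredoxin, the enzyme that repairs overoxidized peroxiredoxins. Its log2 value was 10.79, 10.72 and 10.94 in the Th3/Th3 samples, 8.87, 8.88 and 9.12 in the Th3/+ samples, and 8.10, 8.14 and 8.51 in the wild type samples. The 3 genotypes did not overlap at any point, and each Th3/+ array lay between the other genotypes. Th3/Th3 exceeded wild type by 2.56 (SE 0.14, limma, adjusted p = 2.99e-05), the 14th largest rise among the probe sets tested. Th3/Th3 exceeded Th3/+ by 1.86 (SE 0.14, adjusted p = 0.000287). The difference of Th3/+ from wild type was 0.71 (SE 0.14), higher in 3 of 3 samples, with an unadjusted p of 0.000733 and an adjusted p of 0.501, and so did not pass the test.

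Prdx1 encodes a cytosolic peroxiredoxin that also acts as a chaperone once overoxidized. On its brightest probe set it held 11.13, 10.89 and 10.74 in Th3/Th3, 8.98, 9.18 and 9.25 in Th3/+, and 8.80, 9.01 and 8.55 in wild type. All Th3/Th3 arrays were above all others, and 1 of the Th3/+ arrays lay within the wild type range. The difference between Th3/Th3 and wild type was 2.14 (SE 0.16, adjusted p = 8.72e-05) and that between Th3/Th3 and Th3/+ was 1.79 (SE 0.16, adjusted p = 0.000482). Th3/+ lay 0.35 above wild type (SE 0.16, adjusted p = 1.00).

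The second Prdx1 probe set read lower on every array but showed the same order. It held 10.45, 10.36 and 10.24 in Th3/Th3, 8.90, 8.83 and 8.96 in Th3/+, and 8.53, 8.74 and 8.42 in wild type, a difference of 1.79 between Th3/Th3 and wild type (SE 0.12, adjusted p = 7.45e-05). On this probe set the Th3/+ arrays lay above all wild type arrays, with a difference of 0.33 (SE 0.12, unadjusted p = 0.0223, adjusted p = 1.00). In the order of array identifiers this probe set stands between Gcsam and Dppa4, which are not on the chromosome of Prdx1 in the reference assembly, whereas the brightest stands beside Ccdc17 and Ccdc163, the neighbours of Prdx1. The platform annotation gives both to Prdx1. No named copy of Prdx1 was found between Gcsam and Dppa4. If a near-identical copy of the gene exists, its signal cannot be told apart from that of Prdx1 itself.

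Txnrd1 encodes the cytosolic thioredoxin reductase. Its values were 9.06, 9.00 and 9.46 in Th3/Th3, 7.43, 8.07 and 8.04 in Th3/+, and 7.76, 7.68 and 7.92 in wild type. Here the Th3/+ arrays spread on either side of the wild type arrays. Th3/Th3 exceeded wild type by 1.39 (SE 0.20, adjusted p = 0.0024) and Th3/+ by 1.32 (SE 0.20, adjusted p = 0.00507). The lowest Th3/+ value belonged to replicate 1, one of the arrays that stood apart. Without both of those arrays the difference between Th3/Th3 and wild type was 1.44 (adjusted p = 0.00336, against 0.00114 to 0.0127 over all alternatives).

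The promoters of these 3 genes are shown because the genes rose together and because each is a known target of NRF2, a transcription factor that binds the antioxidant response element. RefSeq windows of 300 bases (GRCm38.p6), from 250 bases before the start site to 50 after it, matched 9 of the 10 listed genes by symbol, with 11 windows in all. The core of the element, TGACNNNGC, was searched on both strands. It was present in 3 of the 11 windows, 1 each for Prdx1, Srxn1 and Txnrd1, against 12.4% of all 32851 windows. All 3 matches were on the opposite strand, so they read GCNNNGTCA in the stretches below, which are written 5′ to 3′ on the gene's strand with the match in capitals.
Prdx1, chr4:116685421-116685519, plus strand, match at -133 to -125: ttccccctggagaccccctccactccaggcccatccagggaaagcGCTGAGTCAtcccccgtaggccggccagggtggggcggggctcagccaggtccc
Txnrd1, chr10:82859069-82859167, plus strand, match at -92 to -84: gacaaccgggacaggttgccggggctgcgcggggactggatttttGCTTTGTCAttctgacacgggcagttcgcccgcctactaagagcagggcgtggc
Srxn1, chr2:152105544-152105568, plus strand, match at 29 to 37 after the start: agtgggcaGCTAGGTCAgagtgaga

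Txnrd1 has 3 annotated start sites, and the match stood before 1 of them. The AP-1 motif TGANTCA, which Jun and Fos proteins bind and which can lie inside the antioxidant element, was in 7.81% of all windows and in those of Srxn1 and Prdx1. In Prdx1 the letters occurred at -237 to -231 and at -131 to -125, and the second of these matches overlaps the antioxidant core shown above. In Srxn1 the AP-1 letters occurred at -102 to -96 and at -45 to -39. With the bases that follow, the second match reads TGAGTCAGC, with TGAG where the searched antioxidant core has TGAC, so that search did not count it. Both AP-1 matches are shown in capitals in this stretch.
Srxn1, chr2:152105397-152105510, plus strand: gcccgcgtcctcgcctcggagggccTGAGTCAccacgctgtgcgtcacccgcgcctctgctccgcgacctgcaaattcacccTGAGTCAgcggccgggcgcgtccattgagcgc

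Each of the other motifs was in 1 or 0 of the 11 windows. The counts of all motifs, also 3 of 11 for the antioxidant core and 2 of 11 for AP-1, are too small to set apart from the shares over all windows. The heat shock letters GAANNTTC were in the Prdx3 window and in 7.86% of all windows. The erythroid CACCC box CCACACCC was also in the Prdx3 window, against 3.56% of all. The E-box CACGTG was in the Prdx4 window, against 7.15%, and was not found in the window of Txnip. The GATA letters AGATAA and TGATAA were in 0 of the 11 windows, against 11.2% and 9.05%. These are matches of letters within short windows and do not show that a factor binds.

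Txn1 encodes thioredoxin, the electron carrier between the reductase and the peroxiredoxins. It held 12.81, 12.95 and 12.86 in Th3/Th3, 12.64, 12.73 and 12.80 in Th3/+, and 12.63, 12.66 and 12.72 in wild type. The Th3/Th3 arrays lay above the others by a narrow margin. The difference from wild type was 0.20 (SE 0.06, adjusted p = 0.0472). It lost its call in 14 of 19 alternative computations, with adjusted p from 0.0281 to 0.265, and was reduced to 0.12 by quantile normalization. Leaving out any wild type sample ended the call (adjusted p = 0.141, 0.121 and 0.0639 without replicates 1, 2 and 3), as did leaving out Th3/Th3 replicate 2 or 3 (0.149 and 0.0985) or Th3/+ replicate 2 or 3 (0.0794 and 0.0551).

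Txnip encodes the thioredoxin-interacting protein, an alpha-arrestin. It held 7.93, 7.52 and 7.21 in Th3/Th3, 7.70, 8.03 and 7.24 in Th3/+, and 8.72, 8.53 and 8.15 in wild type. Wild type was above every other array, and the genotypes with Th3 overlapped. Th3/Th3 lay 0.92 below wild type on the log2 scale (difference -0.92, SE 0.25, adjusted p = 0.0444) and Th3/+ had a difference of -0.82 from it (SE 0.25, unadjusted p = 0.00968, adjusted p = 1.00). Th3/Th3 against Th3/+ gave -0.10 (95% interval -0.67 to 0.47, adjusted p = 0.877). The call against wild type was lost in 9 of 19 alternatives, with adjusted p from 0.00865 to 0.144 and differences from -1.10 to -0.74. It was lost without wild type replicate 1, 2 or 3 (adjusted p = 0.144, 0.126 and 0.0511), Th3/Th3 replicate 2 or 3 (0.113 and 0.135) or Th3/+ replicate 1 (0.0600).

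Prdx2 encodes the peroxiredoxin that accumulates in maturing red cells. Its brightest probe set held 13.17, 13.00 and 13.07 in Th3/Th3, 13.36, 13.36 and 13.38 in Th3/+, and 13.29, 13.35 and 13.42 in wild type. The Th3/Th3 arrays were below all others, while Th3/+ fell within the wild type range. Th3/Th3 differed from wild type by -0.27 (SE 0.05, adjusted p = 0.00741) and from Th3/+ by -0.28 (SE 0.05, adjusted p = 0.0102). These values rank at 99.3% to 99.9% of their arrays, near the top of the scale. Erythroid markers were lower too, with 7 of 9 called lower (4.98% of all probe sets) and a median difference of -0.66 between Th3/Th3 and wild type. The part of this in the fall of Prdx2 was not tested.

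The second Prdx2 probe set did not pass. It held 12.47, 11.93 and 12.14 in Th3/Th3, 12.42, 12.15 and 12.13 in Th3/+, and 12.37, 12.56 and 12.40 in wild type, with a difference of -0.27 between Th3/Th3 and wild type (SE 0.13, adjusted p = 0.243). Replicate 1 was the highest Th3/Th3 sample, and without it the difference was called (-0.41, adjusted p = 0.0422, with a range of 0.0219 to 0.560 over all alternatives). Without Th3/Th3 replicate 2, the lowest, it was -0.14 (adjusted p = 0.560). In identifier order this probe set stands between Pam and Rnf152, and the pseudogene Prdx2-ps1 lies between these genes in the reference assembly, so signal from that copy cannot be told apart from that of Prdx2.

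Prdx3 and Prdx4 serve other compartments. Prdx3, the mitochondrial peroxiredoxin, held 11.16, 10.68 and 11.11 in Th3/Th3, 11.18, 10.90 and 11.00 in Th3/+, and 10.71, 11.04 and 10.83 in wild type, and the 3 genotypes overlapped. Its difference between Th3/Th3 and wild type was 0.13, with a 95% interval of -0.20 to 0.45 (adjusted p = 0.661). Leaving out 1 array at a time moved it between 0.039 (without Th3/Th3 replicate 1) and 0.28 (without Th3/Th3 replicate 2). It was 0.061 without Th3/Th3 replicate 3, 0.051 without wild type replicate 1 and 0.22 without wild type replicate 2. Prdx4, which works in the endoplasmic reticulum, held 8.55, 8.55 and 8.17 in Th3/Th3, 8.01, 7.93 and 8.17 in Th3/+, and 8.28, 8.04 and 8.01 in wild type. Its difference was 0.31, with an interval of -0.02 to 0.65 (adjusted p = 0.227). Prdx4 lies on the X chromosome, and the Xist signal was high in Th3/Th3 replicates 1 and 2, Th3/+ replicate 2 and wild type replicate 1. With the Xist level in the model the Prdx4 difference was 0.27 (adjusted p = 0.345, against 0.0977 to 0.443 over all alternatives).

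**Figure D2:**
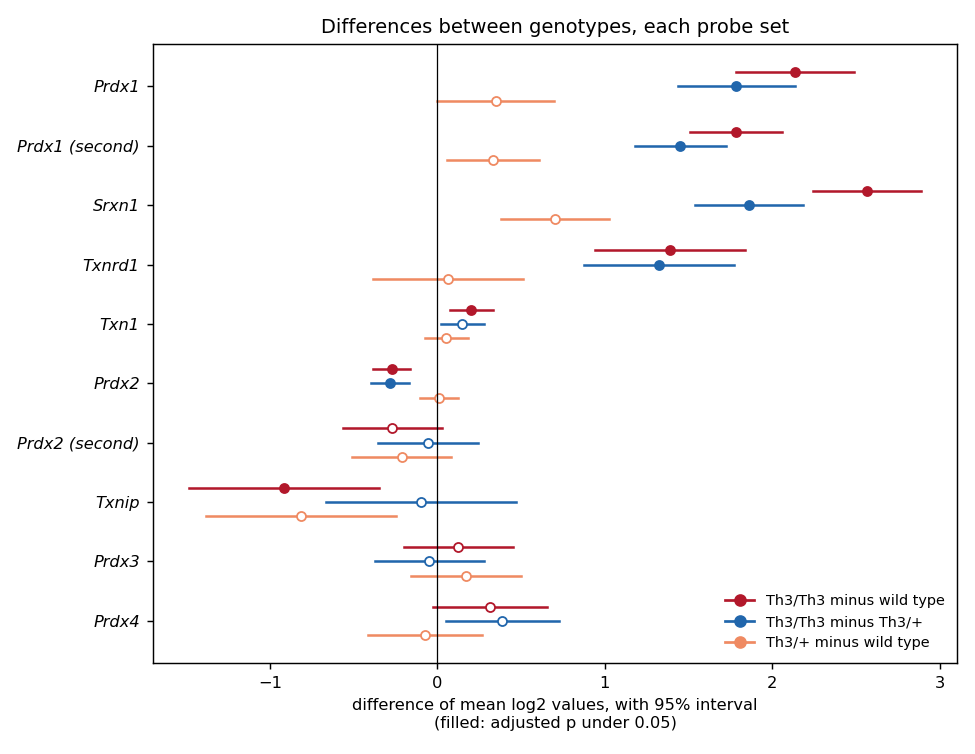
Difference of mean log2 values (x axis) with its 95% interval for each probe set, for Th3/Th3 minus wild type, Th3/Th3 minus Th3/+ and Th3/+ minus wild type. Filled points passed an adjusted p of 0.05; Srxn1, Prdx1 and Txnrd1 stand at 2.56, 2.14 and 1.39 for Th3/Th3 minus wild type, and no point for Th3/+ minus wild type is filled.

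The question of whether 1 Th3 allele is enough to move these genes was addressed by Th3/+ against wild type. By limma 0 of the 8 members were called at an adjusted p under 0.05, and 2 had an unadjusted p under 0.05 on their brightest probe set (Srxn1 at 0.71 and Txnip at -0.82). This background was low as well, with 5 of 17742 probe sets called (0.0282%). An unadjusted p under 0.05 was reached by 645 of the 17742. On the brightest probe sets, Srxn1 and Txnip were also the members whose Th3/+ and wild type arrays did not overlap (2 of 8), against 7.63% of all probe sets (4.40% higher and 3.22% lower). Prdx1 overlapped on its brightest probe set (unadjusted p = 0.0501) and did not on its second.

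Th3/Th3 against Th3/+ called 4 of 8 members, with Prdx1, Srxn1 and Txnrd1 higher and Prdx2 lower. Over all probe sets 7.27% were called, 4.01% higher and 3.26% lower. Arrays did not overlap for 5 of the 8 members, the same 4 and Txn1 (difference 0.15, adjusted p = 0.168), against 22.8% of all probe sets (12.9% higher and 9.93% lower). In Th3/Th3 against wild type the arrays did not overlap for 6 of the 8 members, against 27.5% of all probe sets (15.4% higher and 12.1% lower). The comparisons against wild type share the wild type arrays, and those of Th3/Th3 share the Th3/Th3 arrays, so they are not independent.

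A level in Th3/+ at the midpoint of the other genotypes would mean that the alleles add on the log2 scale. Th3/+ lay below this midpoint by limma's contrast for Prdx1 (-0.72, SE 0.13, adjusted p = 0.108), Srxn1 (-0.58, SE 0.12, adjusted p = 0.147) and Txnrd1 (-0.63, SE 0.17, adjusted p = 0.277), and above it for Prdx2 (0.15, SE 0.04, adjusted p = 0.338). These 4 had an unadjusted p under 0.05, as had 1389 of all 17742 probe sets. After adjustment 0 of 8 passed, where 0.0789% of all probe sets did (0.0620% higher and 0.0169% lower). A departure from the midpoint was therefore not shown for any member.

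**Figure D3:**
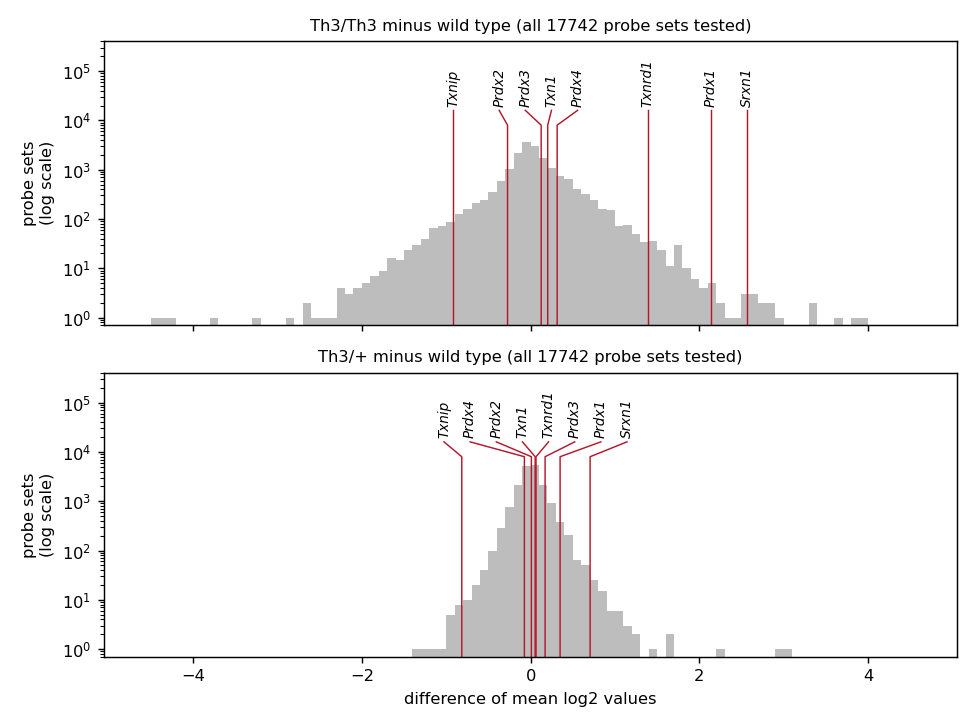
Differences of all 17742 probe sets tested (histogram, counts on a log axis) for Th3/Th3 minus wild type above and Th3/+ minus wild type below, with the members' brightest probe sets marked. Srxn1 at 2.56 and Prdx1 at 2.14 lie in the upper tail of Th3/Th3 minus wild type, and the members lie between -0.82 and 0.71 for Th3/+ minus wild type.

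Members also differed in how they tracked each other across the 9 arrays, which fall into genotypes, so the coefficients below describe that structure and carry no test. Prdx1 and Srxn1 correlated at r = 0.963, Srxn1 and Txnrd1 at 0.939 and Prdx1 and Prdx2 at -0.898. Prdx3 followed none of them closely (0.186 with Prdx1 and 0.11 with Prdx2). Among named genes with a probe set of their own, those most like Prdx1 were Hspe1 (r = 0.994), a mitochondrial cochaperonin, Tomm20 (0.991), a mitochondrial import receptor, and Psmb3 (0.986), a proteasome subunit. Those most like Srxn1 were Blvra (0.994), biliverdin reductase, Ubl5 (0.993) and Sqstm1 (0.991), the autophagy receptor p62.

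Prdx2 was most like Ubac1 (r = 0.991), Alas2 (0.988), the first enzyme of erythroid heme synthesis, and Slc2a1 (0.988), a glucose transporter. Txnrd1 was most like Pdxdc1 (0.990), Cds2 (0.987) and Zfp637 (0.984). Txnip had weaker likenesses, to Hoxa11 (0.954), Onecut3 (0.953) and Nxph3 (0.943). Hoxa11 averaged 4.45 and passed the dim-signal threshold on only 3 arrays. Onecut3 averaged 4.99, near the array medians of 4.95 to 5.01, and Nxph3 averaged 5.83. Both passed the threshold on 9 arrays.

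The rest of the thioredoxin and peroxide network was read from 6 lists of related genes. Of 62 measured genes 7 rose and 4 fell in Th3/Th3 against wild type (17.7% called, beside 12.3% of all probe sets), with a median of 0.10. With the filter raised to the 60th percentile, 13 of 50 list genes were called, beside 20.6% of 11963 probe sets. By limma 25 of the 62 had an unadjusted p under 0.05, beside 4567 of all 17742 probe sets. Without wild type replicate 3 the count called was 7. Among 19 thioredoxin-fold and glutaredoxin relatives, 3 rose and 1 fell (median 0.10). This median was -0.021 without Th3/Th3 replicate 2 and 0.15 without Th3/Th3 replicate 1. Txnl4b, a thioredoxin-like protein of the splicing machinery, averaged 9.05 ± 0.21 in Th3/Th3 and 7.61 ± 0.18 in wild type (SD, n = 3; difference 1.44, adjusted p = 0.00319). Glrx3, a glutaredoxin that carries iron-sulfur clusters, rose by 0.78 (adjusted p = 0.00824) and Txnl1, a thioredoxin-like protein bound to the proteasome, by 0.58 (adjusted p = 0.00365). Txnrd2, the mitochondrial thioredoxin reductase, fell to 9.42 ± 0.11 in Th3/Th3, against 10.01 ± 0.19 in wild type (difference -0.59, adjusted p = 0.0128), so the reductases of the cytosol and of mitochondria moved in opposite directions. The mitochondrial thioredoxin gene Txn2 held 9.53 ± 0.12 in Th3/Th3 and 9.55 ± 0.19 in wild type (adjusted p = 0.933).

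The enzymes that remove peroxide and superoxide by other routes had 1 of 9 members higher and 1 lower (median 0.02). Gsr, glutathione reductase, which like Txnrd1 spends NADPH, averaged 10.04 ± 0.23 in Th3/Th3 and 8.81 ± 0.27 in wild type (difference 1.23, adjusted p = 0.00223). Gpx1, the main glutathione peroxidase of red cells, was lower, with a difference of -0.27 (adjusted p = 0.0221) that was called in 12 of 19 alternatives (adjusted p from 0.0110 to 0.185). It was lost without wild type replicate 2 or 3 (adjusted p = 0.0639 and 0.0781) or Th3/Th3 replicate 2 or 3 (0.0527 and 0.0544). Catalase (Cat) averaged 11.37 ± 0.15 in Th3/Th3 and 11.43 ± 0.17 in wild type (difference -0.06, adjusted p = 0.797).

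The list of NRF2, BACH1 and related regulators of the thioredoxin system had 1 of 10 members higher and 1 lower (median 0.00). By limma 6 of the 10 had an unadjusted p under 0.05, with differences of both signs, beside 4567 of all 17742 probe sets. Sqstm1, which can free NRF2 from its inhibitor KEAP1, rose by 1.47 (SE 0.14, adjusted p = 0.000284). Nfe2, the erythroid relative of NRF2, fell to 11.17 ± 0.22 in Th3/Th3, against 11.91 ± 0.11 in wild type (difference -0.74, adjusted p = 0.00269). The transcript of NRF2 itself, Nfe2l2, held 8.57 ± 0.42 in Th3/Th3 and 8.68 ± 0.01 in wild type (difference -0.11, adjusted p = 0.804), and Keap1 had a difference of 0.45 (adjusted p = 0.109).

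Of 9 thioredoxin clients and repair partners, 1 rose and 1 fell (median 0.18). Sesn2, a stress-induced sestrin, rose by 0.42 (adjusted p = 0.0360) and Rrm2, the small subunit of ribonucleotide reductase, fell by 0.52 (adjusted p = 0.0308). Sesn2 was called in 5 and Rrm2 in 12 of 19 alternatives, with adjusted p from 0.0239 to 0.140 for Sesn2 and 0.0162 to 0.104 for Rrm2. Without wild type replicate 1, 2 or 3 the adjusted p was 0.119, 0.0562 and 0.0726 for Sesn2, and 0.0588, 0.0517 and 0.102 for Rrm2. Rrm2 was also lost without Th3/Th3 replicate 2 or 3 (0.104 and 0.0778). Sesn2 was also lost without Th3/Th3 replicate 1 or 2 (0.0746 and 0.0723) or Th3/+ replicate 2 or 3 (0.0626 and 0.0606). In selenoprotein synthesis, which makes the selenocysteine of Txnrd1, 1 of 8 was called (12.5%, beside 12.3% of all probe sets), with a median of 0.29. This gene, Sepsecs, rose by 0.67 (adjusted p = 0.0229), with adjusted p from 0.0155 to 0.0868 over all alternatives. Sepsecs lost its call without both arrays that stood apart (adjusted p = 0.0743), without wild type replicate 1 or 3 (0.0801 and 0.0868) and without Th3/Th3 replicate 1 or 3 (0.0581 and 0.0602). Among 7 alpha-arrestin relatives and regulators of Txnip 0 passed, and 1 had an unadjusted p under 0.05. Arrdc3 had a difference of 0.53 (adjusted p = 0.150) and Mlxip of 0.20 (adjusted p = 0.210). The Arrdc3 difference was 0.29 without wild type replicate 1, and that of Mlxip was 0.13 without wild type replicate 2. In Th3/+ against wild type 0 of the 62 genes passed, and 2 had an unadjusted p under 0.05, beside 645 of all 17742 probe sets.

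**Figure D4:**
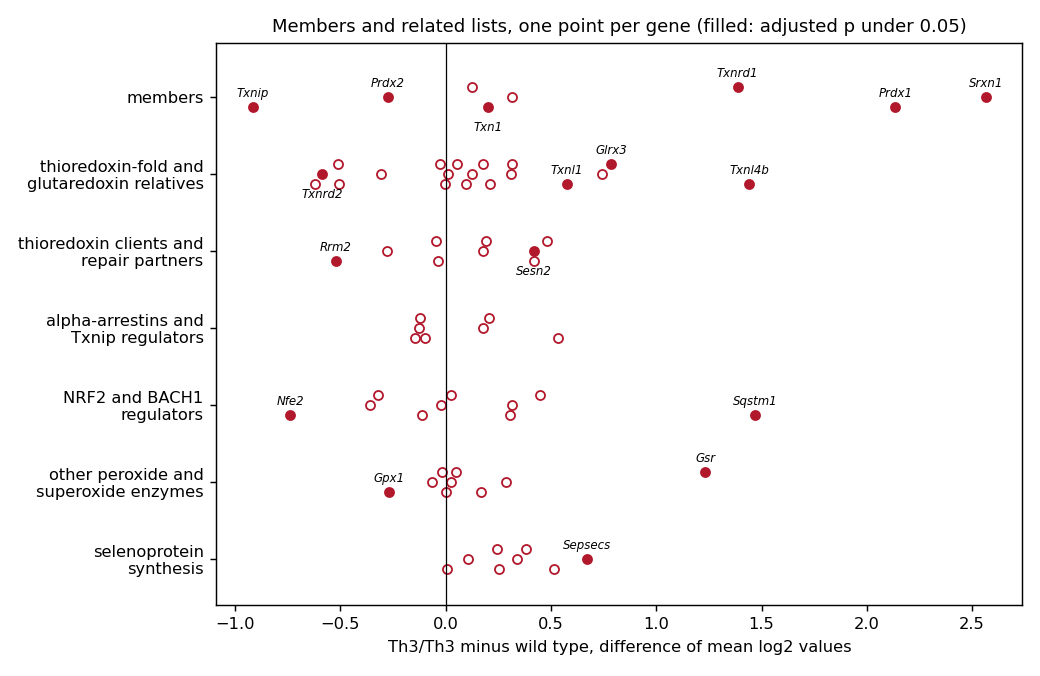
Difference of mean log2 values between Th3/Th3 and wild type (x axis) for the 8 members and the genes of 6 related lists, 1 point per gene, with genes past an adjusted p of 0.05 filled and named. Txnl4b (1.44), Sqstm1 (1.47) and Gsr (1.23) are the list genes nearest in size to Txnrd1 (1.39). Most other list genes are unfilled, and the unfilled ones lie between -0.62 (Tmx1) and 0.74 (Txndc17).

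Signals of other cell types were read beside these results. Macrophage markers, 9 of 12 measured, had array means of 5.26 to 5.32 in Th3/Th3 cells, 5.55 to 6.18 in Th3/+ cells and 5.54 to 6.01 in wild type cells. Between Th3/Th3 and wild type 3 of these 9 were called lower and 0 higher, against 4.98% lower and 7.31% higher over all probe sets. The markers Csf1r, Mrc1 and Vsig4 had no single-symbol probe set past the filter. Hepatoblast markers, 9 of 10 measured, had means of 6.57 to 6.94 in Th3/Th3, 6.63 to 7.26 in Th3/+ and 6.63 to 6.91 in wild type, with 0 called by limma and 0 at an unadjusted p under 0.05. Megakaryocyte, granulocyte and mast cell, lymphoid, and endothelial and stromal markers also had 0 called, with only 4 of 6, 5 of 7, 2 of 5 and 3 of 6 measured. By limma 2, 0, 0 and 0 had an unadjusted p under 0.05, beside 4567 of all 17742 probe sets. Megakaryocyte markers had array means of 6.92 to 7.14 in Th3/Th3, 7.34 to 7.59 in Th3/+ and 7.26 to 7.61 in wild type. Their median difference between Th3/Th3 and wild type was -0.38. The part of these cells in the members' values was not tested.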

How the data were processed

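RNA of 9 sorted erythroblast samples (3 per genotype) was amplified from 35 ng, labelled with biotin and hybridized to whole-transcript arrays, per the labels' protocols. The authors deposited log2 values, 1 per probe set and array, by their range of values, with array medians from 4.95 to 5.01. MAS5 appears in the submitters' processing notes, with no role stated. The values alone do not settle whether it or another method summarised the probes, and how signals were corrected or scaled is not given in the sources used here. Values were used as deposited. The number of arrays limits the precision.

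Of 35556 probe sets, 6617 with identifiers below the first annotated one were taken as the control block and left out. Of the other 28939, 21789 had 1 gene symbol, 1621 had several and 5529 were not listed, and genes were named only from single-symbol probe sets. Gene identifiers of 21698 matched the reference table (GRCm38.p6). To be kept, a probe set had to exceed its array's 40th percentile on 3 or more arrays (17742 did). A gene with several was represented by the brightest. All 9 arrays entered a limma 3.58.1 (R 4.3.3) fit of genotype means with a mean-variance trend, and 4 contrasts, tested two-sided, were adjusted by Benjamini-Hochberg over all kept probe sets. An exact permutation of 3 against 3 arrays cannot give a p under 0.1, so calls rest on the moderated variance. The procedure was tested on simulated data with few changed probe sets and noise independent between arrays. Effects shared by samples were not part of that simulation.

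The members, lists, tests and alternatives were chosen with earlier results of these data known. All members were described. From each list up to 4 called genes by smallest adjusted p were named, or the 2 with the smallest p. For 5 members the 3 genes with the highest Pearson correlation over 9 arrays were named, without predicted genes. Nfe2l2, Keap1, Cat and Txn2 were named in addition. Alternatives changed the filter, control block, scaling, variance trend, arrays fitted, replicate block, Xist covariate or probe set, or left out 1 array each.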

Additional observations from a re-analysis of the deposited data

How the results depend on the processing

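Across 20 alternatives, Prdx1, Srxn1 and Txnrd1 kept a called rise and Prdx2 a called fall in Th3/Th3 against wild type. The count of members called in that comparison was 4 to 6, also over the fits that left out 1 array each, and Txn1 and Txnip were the members lost. Against Th3/+ the count was 3 to 4 (4 in every fit without 1 array), with Prdx2 lost in the fit without a variance trend (adjusted p = 0.0582, with a range of 0.00129 to 0.0582). In Th3/+ against wild type and against the midpoint it was 0 in every fit run. The count of list genes called was 11, with 7 without wild type replicate 3 and 7 to 12 over the fits that left out 1 array.

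Differences that were not called changed sign in some fits. Leaving out 1 array each gave ranges of -0.048 to 0.27 for Txnrd1, -0.023 to 0.042 for Prdx2 and -0.14 to 0.011 for Prdx4 in Th3/+ against wild type. In Th3/Th3 against Th3/+ the ranges were -0.20 to 0.069 for the second Prdx2 probe set, -0.13 to 0.10 for Prdx3 and -0.31 to 0.088 for Txnip. Centring the arrays on the median gave -0.011 for Prdx2 in Th3/+ against wild type, and the Xist covariate gave 0.022 for Prdx3 in Th3/Th3 against Th3/+. The cause was not tested. Over all alternatives the medians of Th3/Th3 against wild type ran from -0.021 to 0.15 for the thioredoxin-fold relatives. They ran from -0.080 to 0.087 for the NRF2 and BACH1 list and -0.030 to 0.077 for the other peroxide enzymes. For the clients and for all lists they were 0.019 to 0.22 and 0.046 to 0.18.

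Over all probe sets, calls numbered 1444 to 2552 for Th3/Th3 against wild type (2181 as reported), 585 to 1513 for Th3/Th3 against Th3/+ (1290), 0 to 12 for Th3/+ against wild type (5) and 1 to 129 for the midpoint (14). With the replicate block the members called were 6, 0, 4 and 0 in the 4 comparisons, as without it. Deviations from the genotype means correlated between -0.125 and 0.355 for samples of the same number, and between -0.352 and 0.252 for different numbers. The value of 0.252 was that of wild type replicate 2 with Th3/+ replicate 1. On the second principal component the replicates 1 lay at 7.71 to 25.54 and the replicates 3 at -14.89 to -12.04. An effect shared by samples of 1 number is therefore possible. The labels do not say what the numbers share, so they were not taken as pairs in the main fit. Signal near the top of the scale limits what can be seen of Prdx2.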

Other observations

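Prdx6 had no probe set of its own, but a probe set listed for its pseudogene Prdx6-ps2 was measured. It averaged 6.83 ± 0.15 in Th3/Th3, 6.57 ± 0.02 in Th3/+ and 6.44 ± 0.28 in wild type (SD, n = 3 each). The difference between Th3/Th3 and wild type was 0.38 (limma, adjusted p = 0.131). It was named after its values were seen, and whether it carries signal of Prdx6 was not tested.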
